A study of Mus musculus with 71 samples.

Results

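Neurotransmitter receptors are the membrane proteins through which a cell senses glutamate, GABA, glycine, acetylcholine, serotonin and dopamine. In RNA sequencing of mouse embryonic stem (ES) cells, 92 of the 24222 genes in the count tables had symbols of these receptors, by a rule that used the symbols and no measured value. They comprise 19 GABA-A, 2 GABA-B, 5 glycine, 7 NMDA, 4 AMPA, 5 kainate, 2 delta and 8 metabotropic glutamate, 16 nicotinic, 5 muscarinic, 14 serotonin and 5 dopamine receptor genes. Of the 92, 32 passed a filter on low counts and were tested among 14145 genes. The other 60 are described by their counts.

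The RNA came from C57BL/6 ES cells in 3 groups of 3 libraries. The dKO cells are labelled as a knockout of both Ezh1 and Ezh2, the rescue cells are labelled as an EZH2 rescue and described as expressing wild-type EZH2 again, and the WT cells are labelled wild type. Cells of every group grew on gelatin in 2i, a medium that keeps ES cells naive. The labels name no clones, do not say from which cells the rescue was made, and do not say whether replicates were separate cultures, so p-values measure the spread between these libraries, which may be technical. Ezh1 was at 2.34, 1.83 and 1.80 CPM (read counts scaled to library size with edgeR's TMM factors) in dKO libraries, 2.89, 2.33 and 3.42 in rescue libraries and 53.4, 48.4 and 47.9 in WT libraries. Ezh2 was at 192, 191 and 214 CPM in dKO, 555, 576 and 549 in rescue and 308, 314 and 310 in WT. Ezh1 was therefore low in rescue as in dKO, and Ezh2 reads were present in dKO. The labels do not say which exons were deleted, so reads from the rest of Ezh2 do not check its label.

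Libraries held 12457622 to 36009529 counts, so that a gene with no count in a library could still be present at up to 0.0857 CPM (deepest library) or 0.226 CPM (shallowest), with 3 counts as the limit and for counting error only. Replicates correlated at 0.986 to 0.997 across genes (log CPM). Replicate 3 of dKO stood apart from its group, at 12.3 on the second principal component against -7.46 and -6.42 for dKO replicates 1 and 2, and results that turn on it are given without it too. All 12 listed markers of naive ES cells passed the filter. Their summed level was 6155 to 6334 CPM in dKO, 7982 to 8116 in rescue and 6986 to 7095 in WT. By the test described below, 7 were called lower and 2 higher in dKO against WT, beside 31% and 33.7% of all tested genes. In rescue against dKO 7 were called higher and 2 lower (32.1% and 38.2%), and in rescue against WT 8 higher and 2 lower (26.8% and 27.3%).

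Ionotropic receptors are ion channels built from several subunits around a pore, and a channel forms in the membrane when the right subunits are made together. Metabotropic, muscarinic and dopamine receptors, and most serotonin receptors, act through G proteins instead. In neurons these genes come on during differentiation. In ES cells many developmental and neuronal genes with CpG-rich promoters are bound by Polycomb repressive complex 2 (PRC2), whose catalytic subunit is Ezh2 or Ezh1 and whose scaffold is Suz12.

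The promoters of 4 members are printed because they stand for 4 different patterns over the groups: Grin1 was high in dKO, Htr5a was low in dKO, Chrna4 was high in dKO and rescue, and Gabrp was low in rescue. Each runs from 250 bases before to 50 bases after the start site annotated by RefSeq on GRCm38.p6, the build mm10 is made from, and is written 5′ to 3′ on the gene's strand with each CpG pair in capitals. Grin1 lies at chr2:25319138-25319437 on the minus strand and holds 33 CpG pairs. Htr5a lies at chr5:27841697-27841996 on the plus strand and holds 14. Chrna4 lies at chr2:181039128-181039427 on the minus strand and holds 33, and Gabrp lies at chr11:33578908-33579207 on the minus strand and holds 4.
Grin1: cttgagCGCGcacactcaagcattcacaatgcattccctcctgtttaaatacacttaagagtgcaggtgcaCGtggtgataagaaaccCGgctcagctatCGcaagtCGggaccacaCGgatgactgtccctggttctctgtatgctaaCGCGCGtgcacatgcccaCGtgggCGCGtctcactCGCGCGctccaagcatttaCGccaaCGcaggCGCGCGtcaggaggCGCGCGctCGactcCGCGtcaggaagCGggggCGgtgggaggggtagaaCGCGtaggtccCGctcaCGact
Htr5a: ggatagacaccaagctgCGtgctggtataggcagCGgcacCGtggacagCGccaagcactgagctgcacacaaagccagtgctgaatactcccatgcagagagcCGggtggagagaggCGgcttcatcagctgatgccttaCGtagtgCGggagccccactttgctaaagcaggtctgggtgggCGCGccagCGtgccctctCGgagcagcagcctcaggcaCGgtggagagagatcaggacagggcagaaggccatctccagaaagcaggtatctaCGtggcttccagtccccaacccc
Chrna4: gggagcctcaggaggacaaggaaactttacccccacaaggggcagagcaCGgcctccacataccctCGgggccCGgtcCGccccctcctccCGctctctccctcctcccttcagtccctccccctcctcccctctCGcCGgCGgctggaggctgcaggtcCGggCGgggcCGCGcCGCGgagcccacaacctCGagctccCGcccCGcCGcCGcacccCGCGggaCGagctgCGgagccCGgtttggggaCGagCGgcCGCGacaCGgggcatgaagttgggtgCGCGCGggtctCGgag
Gabrp: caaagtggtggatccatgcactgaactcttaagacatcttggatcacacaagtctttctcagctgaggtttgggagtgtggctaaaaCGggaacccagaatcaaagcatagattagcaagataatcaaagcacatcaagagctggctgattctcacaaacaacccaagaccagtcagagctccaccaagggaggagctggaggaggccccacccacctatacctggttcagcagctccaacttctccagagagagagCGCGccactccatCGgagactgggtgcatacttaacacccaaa
In a Suz12 ChIP of wild-type ES cells of another strain (129B6F1), a peak covered 273 of the 300 bases at Grin1, and 300 of 300 at both Htr5a and Chrna4. No peak touched the Gabrp promoter. The 4 genes thus include 3 with a Suz12 peak at the start. The 4 were chosen for their different patterns, so the patterns of these 3 differ by choice.

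Added up over the 92 genes, receptor transcripts took 256 to 283 CPM in dKO libraries, 172 to 183 in rescue libraries and 127 to 131 in WT libraries, with no overlap between groups. Grik3 alone gave 32.5% to 42.0% of that sum. Without Grik3 the sum was 157 to 164 CPM in dKO, 105 to 107 in rescue and 83.9 to 86.2 in WT, so the order of the groups was the same. In bulk RNA, fewer cells of a type and less RNA per cell cannot be told apart.

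The comparison of dKO with WT asks which receptor genes differ in cells labelled as lacking both PRC2 methyltransferases. With edgeR's quasi-likelihood test and a Benjamini-Hochberg adjusted p under 0.05 over all tested genes (a call, here and below), 18 of the 32 tested receptor genes were called higher in dKO, beside 33.7% of all tested genes, and 5 were called lower, beside 31% of all tested genes. The 18 were Grin1, Grin2c, Grin2d, Grin3a, Grik3, Grik4, Grik5, Gria3, Gria4, Grid1, Gabrr1, Gabbr1, Glrb, Chrna4, Chrna5, Chrm4, Drd4 and Htr5b. Among the 5 were Htr5a, Chrna7, Grm4 and Grm8. By over 2-fold, 15 were called higher (19.1% of all tested genes) and 2 lower (4.39%). The median log2 fold change was 0.89 over the 32 and -0.0026 over the 14145. A gene that is high in a single group passes the filter through that group, so these counts describe the tested genes and not the 92. Libraries of the 2 groups did not overlap for 23 of the 32 (68% of all tested genes). Without dKO replicate 3, 19 were called higher and 5 lower, beside 35.4% and 33.1% of all genes so tested.

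The comparison of rescue with dKO asks what differs once EZH2 is expressed again. Of the 32 genes, 16 were called lower in rescue (38.2% of all tested genes) and 8 were called higher (32.1% of all tested genes). Among the 8 were Htr5a, Chrna7, Grm8, Gabrb2, Chrnb1, Grm2 and Htr1b. By over 2-fold, 12 were called lower (19.9% of all tested genes) and 3 higher (5.03%). The median log2 fold change was -0.56 over the 32 and -0.04 over all tested genes. Libraries of the 2 groups did not overlap for 25 of the 32 (71.7% of all tested genes). The count called higher was 5 without dKO replicate 2 (29.3% of all genes so tested) and 5 without rescue replicate 3 (29.2%). Without dKO replicate 3 it was 8 (33.7%), with 15 called lower (40.3%).

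The comparison of rescue with WT asks where receptor genes still differ from wild type. Here 12 of the 32 were called higher (26.8% of all tested genes) and 6 lower (27.3% of all tested genes). The 12 were Chrna4, Gabrb2, Htr1b, Grm2, Htr5a, Chrm4, Gria4, Grid1, Grin1, Grik3, Chrnb1 and Grm8, and the 6 were Gabrp, Chrnd, Htr5b, Chrna7, Grik4 and Grm4. By over 2-fold, 7 were called higher (6.43% of all tested genes) and 3 lower (6.5%). The median log2 fold change was -0.06 over the 32 and 0.0016 over all tested genes. Libraries of the 2 groups did not overlap for 23 of the 32 (65.3% of all tested genes). The dKO and WT libraries each enter 2 of the 3 comparisons, and so do the rescue libraries, so the comparisons share their errors.

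**Figure D1:**
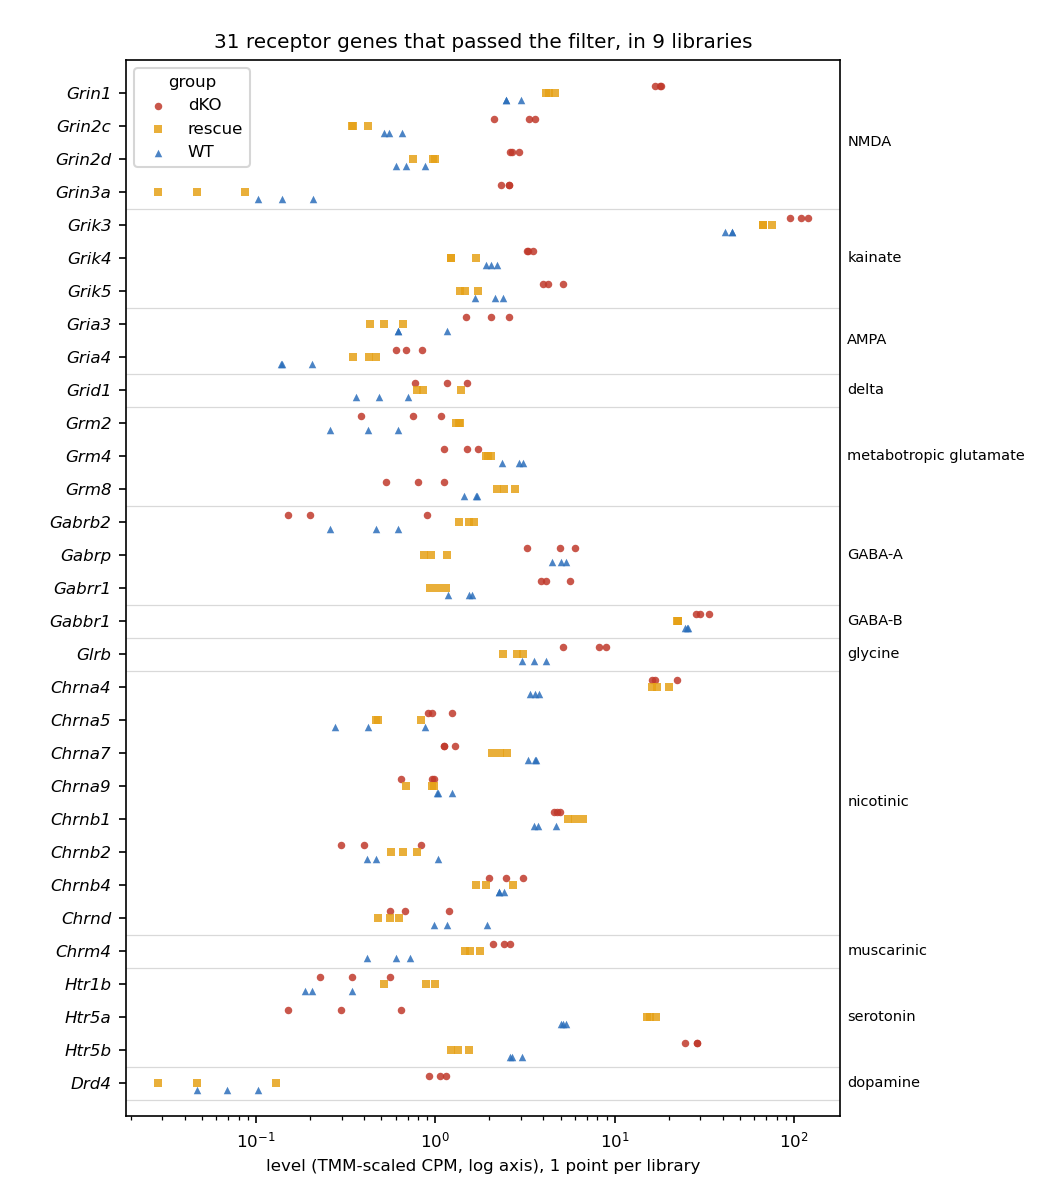
Level of 31 of the 32 tested receptor genes (TMM-scaled CPM, log axis) in the 9 libraries, with 1 point per library, grouped by receptor family. CPM is not divided by transcript length, so points are to be compared along a row. The NMDA genes show all dKO points to the right of the rescue and WT points, and Htr5a shows the dKO points at the left.

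NMDA receptors are glutamate-gated calcium channels that need the glycine-binding subunit made by Grin1, with partners from the Grin2 and Grin3 genes. The 4 tested NMDA genes rose in dKO against WT and fell in rescue against dKO. Grin1 (chromosome 2, 25291177 to 25319187) was at 18.2, 16.9 and 17.8 CPM in dKO, 4.14, 4.30 and 4.63 in rescue and 2.48, 2.98 and 2.48 in WT. The 3 groups did not overlap, with dKO far above both others and rescue a little above WT. The log2 fold change of Grin1 was 2.72 ± 0.12 (SE) in dKO against WT, with a Benjamini-Hochberg adjusted p of 3.72e-09 from edgeR. It was -2.02 ± 0.11 in rescue against dKO (edgeR, adjusted p = 1.6e-08) and 0.70 ± 0.13 in rescue against WT (edgeR, adjusted p = 0.000712). The noncoding antisense gene Grin1os and Lrrc26 overlap Grin1, but averaged at most 0.107 CPM in any group.

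Grin3a, which encodes a glycine-binding subunit that lowers the calcium permeability of the channel, was at 2.56, 2.56 and 2.32 CPM in dKO. It was at 0.0286, 0.0467 and 0.0865 CPM in rescue and at 0.207, 0.140 and 0.103 CPM in WT. The dKO libraries stood far above the rest, and the levels in rescue and WT are near or under what 3 counts give. Its log2 fold change was 4.04 ± 0.31 in dKO against WT and -5.46 ± 0.34 in rescue against dKO (edgeR, Benjamini-Hochberg adjusted p = 4.18e-07 and 6.28e-08). The rescue and WT libraries of Grin3a did not overlap, yet their difference, -1.42 ± 0.62, was not called (edgeR, adjusted p = 0.118). Grin2c, a glutamate-binding subunit known from the cerebellum, was at 3.32, 3.58 and 2.12 CPM in dKO, 0.343, 0.420 and 0.346 in rescue and 0.551, 0.653 and 0.516 in WT. It was several-fold higher in each dKO library than in any other library. Grin2d, the related subunit of embryonic brain, was at 2.94, 2.60 and 2.68 CPM in dKO, 0.972, 0.747 and 0.994 in rescue and 0.689, 0.606 and 0.877 in WT. Its rescue and WT libraries overlapped while dKO lay apart. The log2 fold changes in dKO against WT were 2.35 ± 0.27 for Grin2c and 1.90 ± 0.22 for Grin2d, and in rescue against dKO -3.004 ± 0.28 and -1.57 ± 0.20.

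The other 3 NMDA genes stayed under the filter. Grin2a had 35 counts over the 3 dKO libraries, 15 over rescue and 2 over WT, a ratio of scaled counts of 15.7 in dKO against WT (exact 95% interval 4.03 to 135). Grin2b, the main partner of Grin1 in developing forebrain, had another pattern, with 1, 18 and 2 counts in dKO, rescue and WT. Its ratio was 14 in rescue against dKO (2.21 to 582). These intervals cover counting error only, not the spread between libraries.

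Kainate receptors are glutamate-gated channels in which Grik1, Grik2 and Grik3 encode subunits able to form a channel alone, and Grik4 and Grik5 encode high-affinity subunits that need such a partner. Grik3 gave the most reads of the 92 genes. It was at 94.8, 119 and 109 CPM in dKO, 67.0, 67.4 and 75.3 in rescue and 44.9, 41.2 and 44.96 in WT. The 3 groups formed 3 separate steps. Grik3 rose by 1.30 ± 0.09 in dKO against WT (log2, SE) and fell by 0.62 ± 0.08 in rescue against dKO, and rescue stayed 0.68 ± 0.09 above WT (edgeR, Benjamini-Hochberg adjusted p = 1.27e-07, 3.68e-05 and 5.63e-05).

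Grik5 was at 4.22, 5.16 and 3.99 CPM in dKO, 1.37, 1.73 and 1.47 in rescue and 1.65, 2.14 and 2.37 in WT. It was higher in each dKO library than elsewhere, with log2 fold changes of 1.10 ± 0.19 in dKO against WT and -1.56 ± 0.18 in rescue against dKO. In rescue against WT its value was -0.46 (edgeR, Benjamini-Hochberg adjusted p = 0.0741), and it was called at -0.58 without WT replicate 1 (0.0464) and at -0.47 with only these 2 groups in the fit (0.0496). Grik5 overlaps Zfp574, which averaged 42.9 CPM in dKO, 74.8 in rescue and 45.1 in WT, and unstranded reads of overlapping genes cannot be told apart. Zfp574 had a log2 fold change of -0.07 in dKO against WT and 0.80 in rescue against dKO. The part of its reads in the Grik5 values was not tested. Grik4 averaged 3.35 ± 0.147 CPM in dKO, 1.38 ± 0.268 in rescue and 2.05 ± 0.148 in WT (SD, n = 3 libraries each). It rose by 0.71 in dKO against WT and fell by 1.29 in rescue against dKO on the log2 scale. Its fall by 0.58 in rescue against WT (edgeR, Benjamini-Hochberg adjusted p = 0.0221) was not called without rescue replicate 1 or 2 (0.0943 and 0.0655), without WT replicate 1 or 2 (0.0670 and 0.0601) or by DESeq2 (0.0653). Of the Grik genes under the filter, Grik1 had no count, and Grik2 had 15, 6 and 0 counts in dKO, rescue and WT.

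AMPA receptors carry fast excitatory transmission. Gria3 was at 2.56, 2.05 and 1.48 CPM in dKO, 0.657, 0.514 and 0.432 in rescue and 0.620, 1.17 and 0.619 in WT. The dKO libraries lay above all others, and rescue and WT overlapped. Its log2 fold change was 1.26 ± 0.31 in dKO against WT and -1.84 ± 0.31 in rescue against dKO (edgeR, Benjamini-Hochberg adjusted p = 0.00354 and 0.000205). Gria4 was at 0.603, 0.683 and 0.838 CPM in dKO, 0.429, 0.467 and 0.346 in rescue and 0.138, 0.140 and 0.206 in WT. All libraries of Gria4 were below 1 CPM, and the 3 groups did not overlap. Its log2 fold changes were 2.12 ± 0.37 in dKO against WT, -0.80 ± 0.28 in rescue against dKO and 1.32 ± 0.40 in rescue against WT. The fall of Gria4 in rescue against dKO (edgeR, adjusted p = 0.0250) was lost without dKO replicate 3 (0.121), rescue replicate 1 (0.0640) or rescue replicate 3 (0.0832), and under 3 other settings (0.0523 to 0.178). Its call in rescue against WT (edgeR, adjusted p = 0.0161) was lost without WT replicate 2 (0.0713) and by DESeq2 (0.0755). Gria1 had no count in any library, and Gria2, whose edited subunit blocks calcium entry in most brain AMPA receptors, had 2, 1 and 0 counts.

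Delta receptors resemble the other ionotropic glutamate receptors but bind cerebellins and organise synapses. Grid1 was at 1.51, 0.768 and 1.16 CPM in dKO, 0.857, 0.794 and 1.38 in rescue and 0.482, 0.699 and 0.361 in WT. Its dKO and rescue libraries overlapped, and both lay above WT. The log2 fold change was 1.07 ± 0.38 in dKO against WT and 0.93 ± 0.37 in rescue against WT (edgeR, Benjamini-Hochberg adjusted p = 0.0251 and 0.0494). The first was lost without dKO replicate 1 (0.0729), WT replicate 1 (0.0630) or WT replicate 3 (0.0953). The second was lost without rescue replicate 1 or 3 (0.0592 and 0.181) or WT replicate 1 or 3 (0.112 and 0.171), and under 4 other settings at adjusted p of 0.0513 to 0.0708. Grid1 lies on chromosome 14, where the median log2 fold change of all tested genes was -0.84 in rescue against WT and -0.97 within 5 Mb of Grid1. The part of that shift in the value of Grid1 was not tested.

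Metabotropic glutamate receptors of the Grm2, Grm4 and Grm8 kind lower transmitter release through inhibitory G proteins. None of the 3 tested genes was called higher in dKO against WT, while all 10 tested ionotropic glutamate genes were, beside 33.7% of all tested genes. Grin3a, with 152 counts in dKO, 4 in rescue and 8 in WT, passed the filter through dKO. No contrast between the families is therefore read from these counts, and none was tested. Grm8 was at 0.527, 1.11 and 0.799 CPM in dKO, 2.77, 2.19 and 2.42 in rescue and 1.45, 1.68 and 1.70 in WT. Each group was apart from the others, with rescue highest and dKO lowest. Its log2 fold changes were -0.93 ± 0.26 in dKO against WT, 1.54 ± 0.24 in rescue against dKO and 0.61 ± 0.22 in rescue against WT (edgeR, Benjamini-Hochberg adjusted p = 0.00734, 9.39e-05 and 0.0303). The last was lost without rescue replicate 1 or 3 (0.126 and 0.0623), without any 1 WT library (0.0927, 0.0692 and 0.0578) and by DESeq2 (0.0592).

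Grm4 was at 1.73, 1.49 and 1.12 CPM in dKO, 1.97, 1.91 and 2.03 in rescue and 2.34, 2.94 and 3.09 in WT. The groups formed 3 steps with dKO lowest and WT highest. The fall of Grm4 in dKO against WT was -0.99 ± 0.20 on the log2 scale (edgeR, Benjamini-Hochberg adjusted p = 0.00104). In rescue against WT it was -0.51 ± 0.19 (edgeR, adjusted p = 0.0368), which was lost without any 1 rescue library (0.0949, 0.0826 and 0.0746), without WT replicate 2 or 3 (0.110 and 0.125) and under 3 other settings (0.0520 to 0.0962). In rescue against dKO the value was 0.48 (edgeR, adjusted p = 0.0518), with 0.60 without dKO replicate 1 (0.0335) and 0.51 with DESeq2's size factors (0.0406).

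Grm2 was at 0.753, 0.384 and 1.08 CPM in dKO, 1.37, 1.35 and 1.30 in rescue and 0.620, 0.420 and 0.258 in WT. Rescue libraries were the highest and close to each other, while dKO and WT overlapped. It rose by 1.67 ± 0.38 in rescue against WT on the log2 scale (edgeR, Benjamini-Hochberg adjusted p = 0.00276). The rise by 0.85 in rescue against dKO (edgeR, adjusted p = 0.0359) was lost without any 1 rescue library (0.0871, 0.0674 and 0.0641), without dKO replicate 1 or 2 (0.0629 and 0.162) and by DESeq2 (0.0694). In dKO against WT the value was 0.82, with an adjusted p of 0.110 from edgeR that became 0.0171 without dKO replicate 2. Of the untested genes of this family, Grm5, which signals through calcium release, had 18 counts in rescue, 1 in dKO and none in WT.

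**Figure D2:**
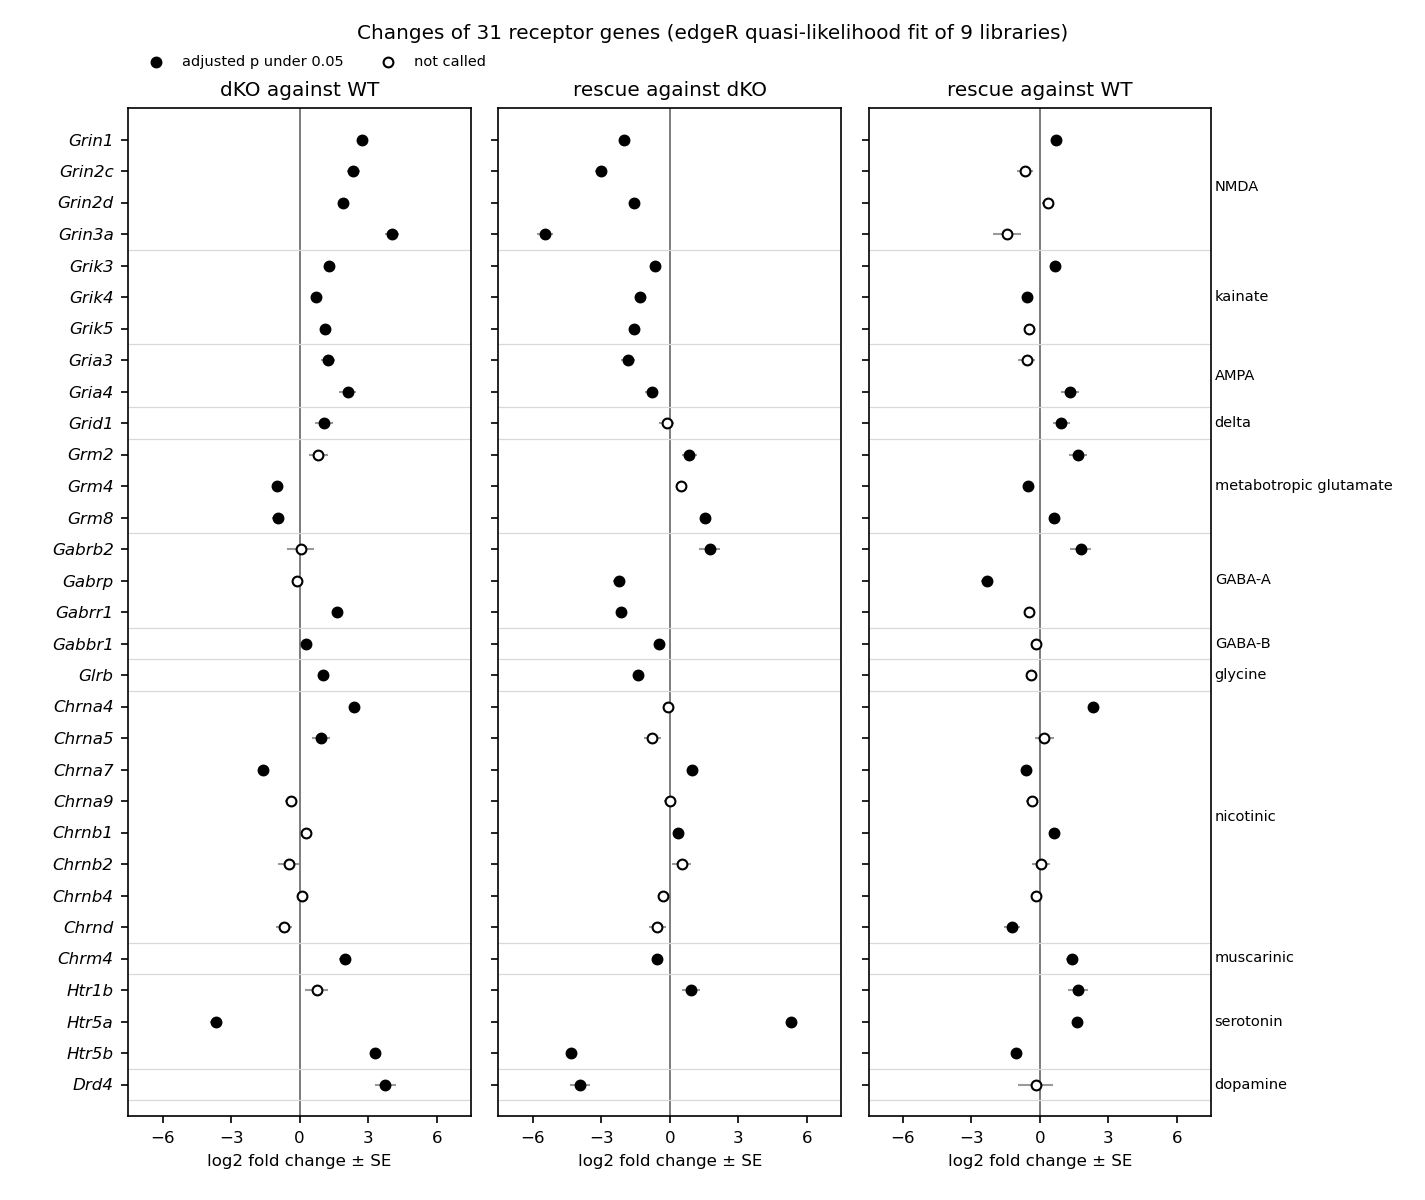
Log2 fold change ± SE (edgeR) of 31 of the 32 tested receptor genes in the 3 comparisons, grouped by family, with filled points at an adjusted p under 0.05. The 10 ionotropic glutamate genes (Grin1 to Grid1) lie right of 0 in dKO against WT, and Htr5a at -3.67 and Htr5b at 3.30 lie on opposite sides.

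GABA-A receptors are chloride channels that carry fast inhibition, usually built of alpha, beta and gamma subunits. No alpha or gamma gene passed the filter, and the tested genes did not move together. Gabrp, which encodes the pi subunit known mainly outside the brain, was at 6.03, 4.95 and 3.23 CPM in dKO, 0.943, 1.17 and 0.865 in rescue and 5.03, 4.48 and 5.36 in WT. Rescue was low against both other groups, which overlapped. In edgeR's fit Gabrp had a log2 fold change of -2.23 ± 0.24 in rescue against dKO and -2.32 ± 0.24 in rescue against WT (edgeR, Benjamini-Hochberg adjusted p = 5.82e-06 and 1.14e-05), with -0.09 ± 0.21 in dKO against WT (0.707). Gabrr1, a rho subunit known from the retina, was at 4.14, 5.63 and 3.87 CPM in dKO, 1.14, 0.934 and 1.04 in rescue and 1.17, 1.54 and 1.60 in WT. It was raised in each dKO library. Its log2 fold change was 1.65 ± 0.21 in dKO against WT and -2.12 ± 0.21 in rescue against dKO (edgeR, adjusted p = 2.27e-05 and 2.2e-06).

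Gabrb2 was at 0.151, 0.896 and 0.200 CPM in dKO, 1.54, 1.35 and 1.64 in rescue and 0.620, 0.466 and 0.258 in WT. Rescue libraries were above all others, and dKO replicate 2 stood far above the other dKO libraries. On the log2 scale Gabrb2 rose by 1.75 ± 0.44 in rescue against dKO, and by 3.02 without dKO replicate 2. In rescue against WT it was 1.79 ± 0.46 (edgeR, Benjamini-Hochberg adjusted p = 0.00616).

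Among untested GABA-A genes, Gabra4 had 18, 5 and 1 counts in dKO, rescue and WT. Gabra2, Gabra6 and Gabrr2 had no count in any library.

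GABA-B receptors are G-protein-coupled and need both Gabbr1, which binds GABA, and Gabbr2, which couples to the G protein. Gabbr1 was at 28.5, 29.7 and 33.3 CPM in dKO, 22.2, 22.5 and 22.4 in rescue and 25.2, 25.7 and 24.6 in WT. The 3 groups were narrow and apart, with dKO highest, but the steps were small. Gabbr1 had log2 fold changes of 0.28 ± 0.08 in dKO against WT and -0.45 ± 0.08 in rescue against dKO (edgeR, Benjamini-Hochberg adjusted p = 0.00697 and 0.000201). In rescue against WT it was -0.17 (edgeR, adjusted p = 0.0764), with 0.0419 when the scaling left out chromosomes 3 and 14 and 0.0315 with only the 2 groups in the fit. Its partner Gabbr2 had 8, 6 and 2 counts.

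Glycine receptors pair alpha subunits with the beta subunit of Glrb, which ties the receptor to gephyrin. Glrb was at 8.97, 8.15 and 5.15 CPM in dKO, 3.06, 2.85 and 2.38 in rescue and 3.03, 3.54 and 4.13 in WT. The dKO libraries were the highest, with replicate 3 lowest among them. It rose by 1.03 ± 0.21 in dKO against WT and fell by 1.39 ± 0.21 in rescue against dKO on the log2 scale (edgeR, Benjamini-Hochberg adjusted p = 0.00106 and 7.95e-05). Glrb lies on chromosome 3, where the median of all tested genes was -0.43 in rescue against dKO and -0.41 in rescue against WT, and the part of that shift in the value of Glrb was not tested. Of the alpha genes, Glra1, Glra2 and Glra3 had no count, and Glra4 had 0, 2 and 2 counts in dKO, rescue and WT.

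Nicotinic receptors are cation channels opened by acetylcholine. Of the 8 tested genes, 2 were called higher and 1 was called lower in dKO against WT, beside 33.7% and 31% of all tested genes. With only 8 genes, no difference from these shares is read from the counts. Chrna4, whose subunit joins that of Chrnb2 in the main high-affinity nicotinic receptor of brain, was at 16.1, 16.7 and 22.3 CPM in dKO, 17.1, 16.1 and 20.02 in rescue and 3.58, 3.36 and 3.76 in WT. The dKO and rescue libraries covered the same range, far above WT. The log2 fold change of Chrna4 was 2.37 ± 0.16 in dKO against WT and 2.31 ± 0.15 in rescue against WT (edgeR, Benjamini-Hochberg adjusted p = 9.92e-08 and 4.3e-07). In rescue against dKO it was -0.06 ± 0.13 (edgeR, adjusted p = 0.693). Its partner Chrnb2 averaged 0.509 ± 0.282 CPM in dKO, 0.671 ± 0.116 in rescue and 0.637 ± 0.343 in WT (SD, n = 3 libraries each), with overlapping libraries and no call. Chrnb2 lies on chromosome 3 and overlaps Adar, which averaged 79.1, 78.1 and 129 CPM in dKO, rescue and WT.

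Chrna7, which forms channels from its own subunit alone, was at 1.28, 1.11 and 1.12 CPM in dKO, 2.52, 2.29 and 2.08 in rescue and 3.65, 3.59 and 3.30 in WT. The groups formed 3 separate steps with dKO lowest. Its log2 fold change was -1.60 ± 0.18 in dKO against WT, 0.99 ± 0.18 in rescue against dKO and -0.60 ± 0.15 in rescue against WT (edgeR, Benjamini-Hochberg adjusted p = 7.56e-06, 0.000316 and 0.00579). Chrna5, an accessory subunit, averaged 1.03 ± 0.179 CPM in dKO, 0.590 ± 0.207 in rescue and 0.524 ± 0.314 in WT (SD, n = 3 libraries each). Its rise by 0.95 in dKO against WT was at the threshold (edgeR, adjusted p = 0.0492) and was lost without dKO replicate 1 or 2 (0.0571 and 0.153), without WT replicate 1 or 2 (0.155 and 0.168) and under 6 other settings (0.0502 to 0.0889). Its value in rescue against dKO, -0.76, was not called (edgeR, adjusted p = 0.0743), and without rescue replicate 1 it was -1.13 (0.0343). Its neighbour Chrna3, which overlaps it, had 7, 0 and 1 counts.

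Chrnb1 and Chrnd encode subunits of the receptor of skeletal muscle. Chrnb1 averaged 4.78 ± 0.184 CPM in dKO, 6.04 ± 0.599 in rescue and 3.98 ± 0.614 in WT (SD, n = 3 libraries each). Rescue lay above both other groups, and it rose by 0.62 ± 0.14 against WT on the log2 scale (edgeR, Benjamini-Hochberg adjusted p = 0.00298). Its rise by 0.35 in rescue against dKO (edgeR, adjusted p = 0.0380) was lost without dKO replicate 1 or 2 (0.0544 and 0.0996), without rescue replicate 1 or 3 (0.154 and 0.0722) and with a filter at 2 CPM (0.0738). Chrnd was at 0.678, 1.19 and 0.559 CPM in dKO, 0.629, 0.560 and 0.476 in rescue and 1.93, 1.17 and 0.980 in WT. Rescue was below every WT library, while dKO spanned much of the range. Chrnd fell by 1.22 ± 0.35 in rescue against WT (edgeR, adjusted p = 0.0110), and without WT replicate 1 the value was -0.93 (0.0548). In dKO against WT its value was -0.68 (edgeR, adjusted p = 0.102), and without dKO replicate 2 it was -1.12 (0.0208). Chrna9 and Chrnb4 were not called in any comparison, with log2 fold changes between -0.38 and 0.11.

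Muscarinic receptors act through G proteins. Chrm4, coupled to inhibitory G proteins, was at 2.41, 2.09 and 2.60 CPM in dKO, 1.46, 1.77 and 1.56 in rescue and 0.413, 0.606 and 0.722 in WT. Its groups were apart, with rescue between dKO and WT. Chrm4 had log2 fold changes of 1.98 ± 0.24 in dKO against WT and 1.41 ± 0.25 in rescue against WT (edgeR, Benjamini-Hochberg adjusted p = 1.76e-05 and 0.000536). Its fall by 0.58 in rescue against dKO (edgeR, adjusted p = 0.0197) was lost without dKO replicate 3 (0.0512), rescue replicate 1 (0.0843) or rescue replicate 3 (0.0558) and by DESeq2 (0.0762). Chrm4 overlaps Mdk, which averaged 81.1, 47.9 and 86.1 CPM in dKO, rescue and WT, a log2 fold change of -0.09 in dKO against WT and -0.76 in rescue against dKO. Reads of Chrm4 and Mdk cannot be told apart without strand. Chrm2 and Chrm5 had no count.

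Drd4 encodes the dopamine receptor D4, coupled to inhibitory G proteins. It was at 1.05, 1.15 and 0.918 CPM in dKO, 0.0286, 0.0467 and 0.130 in rescue and 0.0689, 0.0466 and 0.103 in WT. The dKO libraries were the only ones above the level that 3 counts give in the shallowest library. Drd4 had log2 fold changes of 3.74 ± 0.46 in dKO against WT and -3.92 ± 0.43 in rescue against dKO (edgeR, Benjamini-Hochberg adjusted p = 2.04e-05 and 6.08e-06), with -4.65 for rescue against dKO without rescue replicate 3. Drd2, which stayed under the filter, had 14, 10 and 23 counts in dKO, rescue and WT, and Drd1 had none.

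Among the serotonin receptors, Htr5a and Htr5b had opposed patterns. Htr5a (chromosome 5, 27841716 to 27855086) was at 0.151, 0.299 and 0.639 CPM in dKO, 15.1, 17.0 and 15.7 in rescue and 5.03, 5.32 and 5.16 in WT. Rescue was highest, every dKO library was under 1 CPM, and the groups were far apart. The log2 fold change of Htr5a was -3.67 ± 0.25 in dKO against WT, 5.29 ± 0.23 in rescue against dKO and 1.62 ± 0.15 in rescue against WT (edgeR, Benjamini-Hochberg adjusted p = 1.59e-07, 3.23e-09 and 5.72e-06). Without dKO replicate 3, the dKO library with the most Htr5a, the first was -4.37 and the second 5.99.

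Htr5b (chromosome 1, 121509758 to 121529312), the closest relative of Htr5a and a pseudogene in humans, was at 28.9, 28.8 and 24.8 CPM in dKO, 1.23, 1.54 and 1.34 in rescue and 2.69, 2.61 and 3.04 in WT. Here dKO was highest and rescue lowest, with no overlap. For Htr5b the log2 fold change was 3.30 ± 0.12 in dKO against WT, -4.34 ± 0.13 in rescue against dKO and -1.04 ± 0.16 in rescue against WT (edgeR, Benjamini-Hochberg adjusted p = 1.35e-09, 2.66e-10 and 0.00021). Htr5a and Htr5b thus changed in opposite directions in each of the 3 comparisons. Htr1b was at 0.226, 0.341 and 0.559 CPM in dKO, 0.514, 0.887 and 0.994 in rescue and 0.344, 0.187 and 0.206 in WT. Rescue was above every WT library and overlapped dKO. Htr1b rose by 1.69 ± 0.44 in rescue against WT on the log2 scale (edgeR, adjusted p = 0.00665). Its rise by 0.94 in rescue against dKO (edgeR, adjusted p = 0.0444) was lost without dKO replicate 1 or 2 (0.116 and 0.133), without rescue replicate 2 or 3 (0.105 and 0.144), with only these 2 groups in the fit (0.0555) and by DESeq2 (0.0924). Htr3a and Htr3b encode subunits of the ion channel among serotonin receptors, and had 27, 13 and 6 counts (Htr3a) and 4, 0 and 0 counts (Htr3b) in dKO, rescue and WT.

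**Figure D3:**
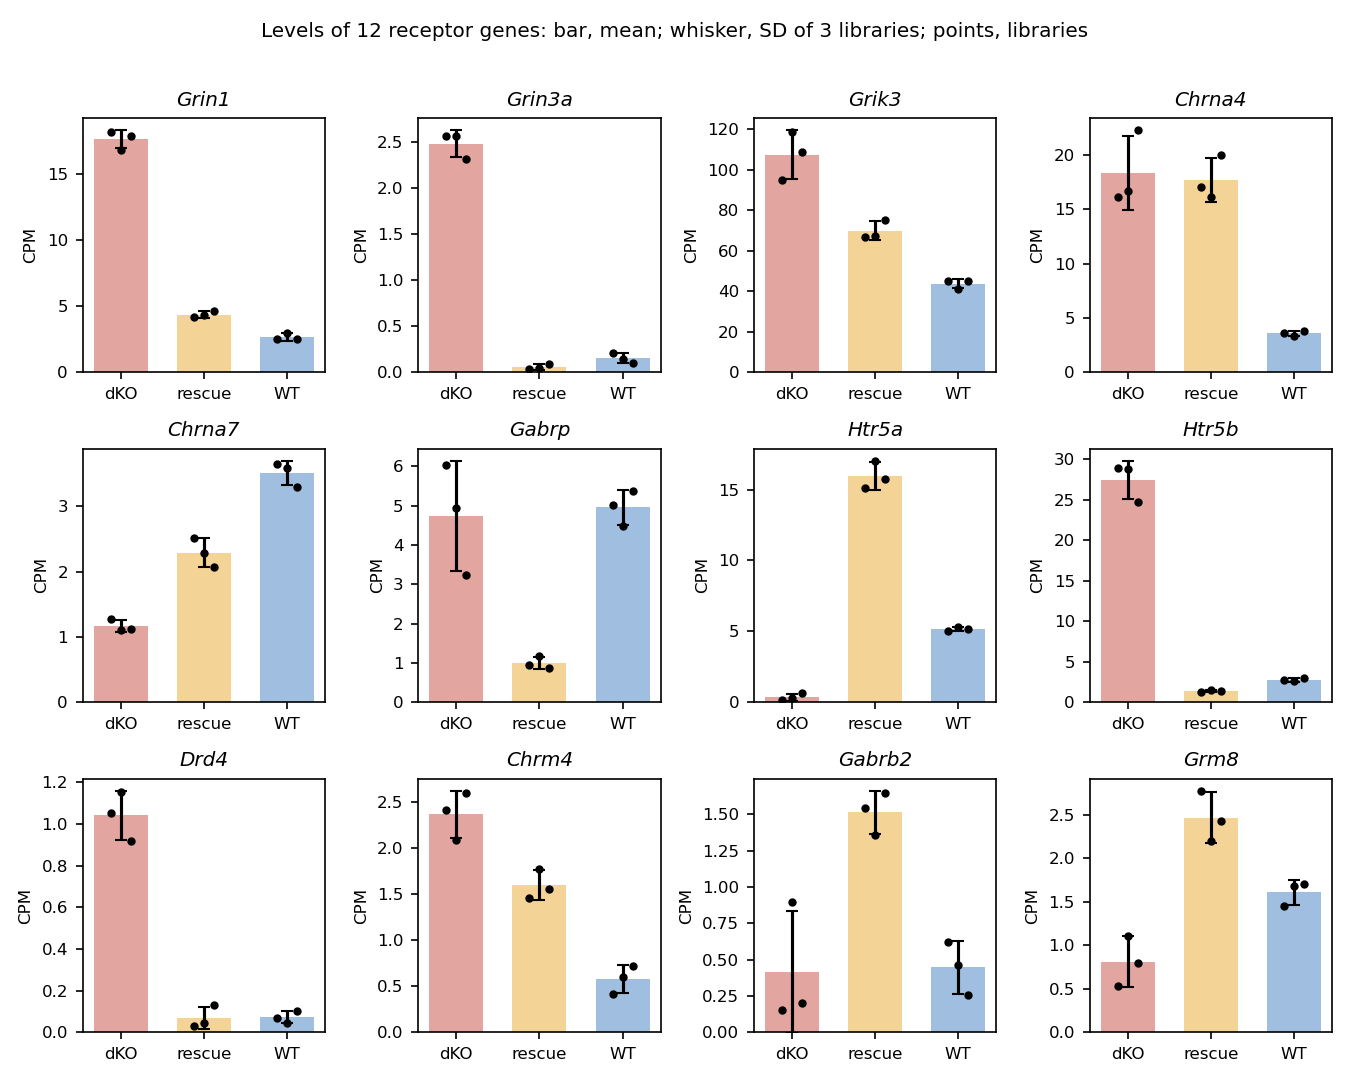
Level (CPM) of 12 receptor genes in dKO, rescue and WT, with bars at the mean, whiskers at 1 SD of 3 libraries and points for libraries. Grin1, Grin3a, Htr5b and Drd4 are high in dKO alone, Chrna4 is high in dKO and rescue, Gabrp is low in rescue, and Htr5a is lowest in dKO and highest in rescue.

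Of the 60 receptor genes under the filter, 16 had no count in any of the 9 libraries, 6 had 1 to 3 counts in all, and 38 had more, up to 52. Those at 0 include both Gria1 and Grik1, the dopamine receptor Drd1, the serotonin receptors Htr1a and Htr2c, the metabotropic Grm7, and the nicotinic Chrnb3. Counting a gene as detected in a group at over 3 counts in its libraries together, 62 of the 92 were detected in dKO, 54 in rescue and 43 in WT. With a mean of at least 0.5 CPM as the limit, the numbers were 30, 28 and 27. The groups differ in total depth, and the first limit moves with depth.

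The other genes of transmission were read from lists chosen with earlier results of these data known. Their counts stand beside 33.7% of all tested genes higher and 31% lower in dKO against WT, and 32.1% higher and 38.2% lower in rescue against dKO. Of the 15 tested genes of other receptor families (adrenergic, purinergic, adenosine, histamine and opioid), 14 were called higher in dKO against WT and 14 lower in rescue against dKO. The histamine receptor Hrh1 was at 2.11, 2.65 and 1.96 CPM in dKO, 0.257, 0.187 and 0.130 in rescue and 0, 0 and 0.206 in WT, so its WT level rests on 1 library. P2rx2, an ATP-gated channel, was the 1 not called in dKO against WT, at a log2 fold change of 0.65. Of 34 tested scaffolds, auxiliary subunits and assembly factors, 25 were called higher and 5 lower in dKO against WT, and 22 lower and 4 higher in rescue against dKO. Cbln1, the cerebellin that binds delta receptors, was at 63.3, 55.3 and 57.3 CPM in dKO, 6.83, 6.16 and 7.13 in rescue and 2.20, 2.14 and 2.06 in WT, a log2 fold change of 4.77 in dKO against WT. Homer2, a scaffold of metabotropic glutamate receptors, rose by 2.23 in dKO against WT, while Kctd12b, an auxiliary subunit of GABA-B receptors, had a log2 fold change of -5.002.

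Of 13 tested genes of transmitter uptake and breakdown, 9 were called higher and 2 lower in dKO against WT. Abat, which degrades GABA, averaged 9.95 CPM in dKO, 1.22 in rescue and 1.29 in WT, and rose by 2.91 in dKO against WT. The glutamate transporter Slc1a1 rose by 2.51, and Maoa, 1 of the 2 called lower, fell by 0.90. The glial transporter Slc1a3 was not called at -0.30. Of 10 tested genes of transmitter synthesis and vesicular loading, 2 were called higher and 5 lower in dKO against WT. The vesicular glutamate transporter Slc17a7 was at 5.42, 6.87 and 6.67 CPM in dKO, 1.23, 0.981 and 1.43 in rescue and 0.0689, 0.420 and 0.206 in WT, and rose by 4.63 in dKO against WT. Ddc, which makes dopamine and serotonin from their precursors, fell by 1.40, and the vesicular monoamine transporter Slc18a2 was not called at -0.01. Chat, Th and Slc32a1 stayed under the filter.

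Rest encodes a repressor of neuronal genes outside neurons, and 12 of 12 listed genes of its machinery were tested. In dKO against WT 9 were called lower and 1 higher, beside 31% and 33.7% of all tested genes. Rest itself, named here after its values were seen, was at 67.7, 87.9 and 126 CPM in dKO, 265, 273 and 279 in rescue and 187, 155 and 183 in WT. Its log2 fold change was -0.89 in dKO against WT, 1.53 in rescue against dKO and 0.64 in rescue against WT. Hdac1 had -0.43 and Kdm1a -0.33 in dKO against WT, and Rcor1 was not called at 0.17. Whether the Rest level has a part in the receptor values was not tested.

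Markers of other cell types also differed between the groups. Their counts in dKO against WT stand beside 33.7% of all tested genes called higher and 31% called lower. Of 15 tested neuron markers, 10 were called higher and 3 lower in dKO against WT, and their summed level over the list of 18 was 332 to 362 CPM in dKO, 559 to 623 in rescue and 513 to 589 in WT. The 10 were Map2, Mapt, Rbfox3, Syp, Nefl, Nefm, Nefh, Elavl3, Elavl4 and Stx1a, and the 3 were Stmn2, Tubb3 and Syn1. Stmn2 averaged 179 CPM in dKO, 335 in rescue and 442 in WT, the largest level of the list. Gap43 and Ina were not called, and of the 3 markers under the filter Dcx had no count in any library, while Snap25 and Syt1 had few. Of 6 tested markers of neural progenitors and glia, 4 were called higher and none lower (199 to 248 CPM in sum in dKO, 126 to 134 in rescue and 67.8 to 71.9 in WT). For 9 primitive endoderm markers, 8 were called higher, with sums of 381 to 528 CPM in dKO, 240 to 248 in rescue and 209 to 218 in WT. For 5 tested fibroblast markers, 5 were called higher, with sums of 58.9 to 64.9, 14.7 to 15.6 and 6.70 to 8.39 CPM in dKO, rescue and WT. Of 4 tested muscle markers, 1 was called higher and 1 lower, too few to read against the shares of all tested genes. Myf5 and Myf6 had no count. The sums were 90.4 to 104 CPM in dKO, 96.8 to 118 in rescue and 107 to 139 in WT. The part of other cell types in the receptor values was not tested.

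The Suz12 peaks of the 129B6F1 cells were set beside all genes. The list holds 7480 peaks as coordinates, with no score. A peak lay within 1 kb of the start of 44 of the 92 receptor genes (47.8%), against 4914 of 24073 placed genes (20.4%). For 24 receptor genes with no annotated start, Grin2a, Grin2b and Grin3a among them, either gene end was used instead. For NMDA receptors it was 7 of 7 genes, for dopamine receptors 4 of 5, for kainate receptors 4 of 5 and for serotonin receptors 7 of 14. For GABA-A receptors it was 6 of 19, and for glycine receptors 1 of 5. Htr5b had no peak within 1 kb but had a peak within 5 kb. Receptor genes with a peak passed the filter in 20 of 44 cases (45.5%), and those without in 12 of 48 (25.0%). Over all placed genes the shares were 76.9% and 53.9%.

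Of the 20 tested receptor genes with a peak, 12 were called higher and 5 lower in dKO against WT, with a median log2 fold change of 0.99. Of the 12 without, 6 were called higher and none lower, with a median of 0.55. Over all tested genes, 58.8% of those with a peak were called higher and 16% lower (median 0.59), and of those without 24.5% and 36.5% (median -0.10). In rescue against dKO, 9 of the 20 with a peak were called lower and 6 higher, beside 61% and 17% of all tested genes with a peak. Of the 12 without, 7 were called lower and 2 higher, beside 29.9% and 37.6% of all tested genes without a peak. As shares, 45% of the receptor genes with a peak and 58.3% of those without were called lower. With 20 and 12 genes, no order is read from these shares, and their difference was not tested. Grik5, Gabrr1 and Htr5b, called lower and counted without a peak, had a peak elsewhere in the gene or within 1 kb of its ends. So did Chrna9, which was not called. Of the genes called lower in dKO, Htr5a, Chrna7 and Grm8 each had a peak at the start. Grm4, which has no annotated start here, had a peak at an end of the gene. The genes without a peak that were called higher in dKO were Grik5, Gria3, Gria4, Gabrr1, Gabbr1 and Htr5b.

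RefSeq promoters of GRCm38.p6 matched 68 of the 92 genes. The median number of CpG pairs (the letters CG, which read the same on both strands) in the 300 bases was 23 in the 33 matched genes with a Suz12 peak and 7 in the 35 without. Over all matched genes the medians were 24 with a peak and 9 without. At least 20 CpG pairs were found in 54.5% of receptor promoters with a peak and 11.4% of those without, against 64.7% and 29.0% over all genes. Grik3 had 50 CpG pairs, Grik4 42, Chrna7 35, and Grin1, Chrna4 and Grm8 33 each. Chrna7 and Grm8, which fell in dKO, were thus as rich in CpG as Grin1 and Chrna4, which rose. Among genes with a peak, Grin2d had 12, Htr1b 11 and Grin3b 3.

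**Figure D4:**
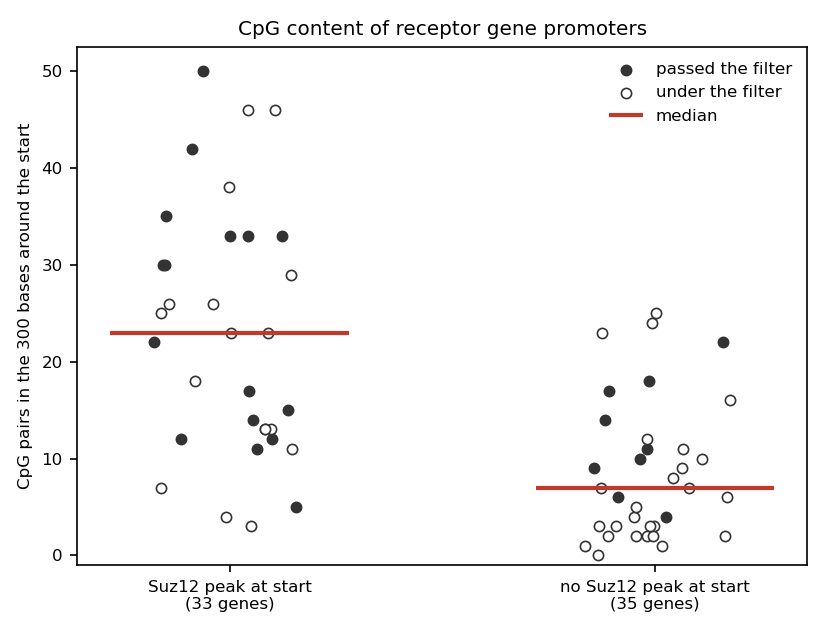
CpG pairs in the 300 bases around the RefSeq start of 68 receptor genes, by whether a Suz12 peak lay within 1 kb of the start, with filled points for genes that passed the filter and a line at the median. The median was 23 in 33 genes with a peak and 7 in 35 genes without.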

How the data were processed

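Whole-number counts of reads per gene were deposited by the authors without normalization, 1 table per RNA library, and no row without a gene name entered a test. Per the submitters' processing notes, Trimmomatic, STAR 2.4.0 and HTSeq were used with mm10. The kit was TruSeq RNA Library Prep v2 per the labels' protocols, an unstranded one. For the annotation, the counting mode and the caller of the Suz12 peaks, no name is given in the sources used here. Of the Suz12 peaks the authors deposited coordinates and no other values, printed 1-based here.

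Counts were tested in edgeR 4.0.16 (R 4.3.3) with TMM, filterByExpr by group, robust glmQLFit and glmQLFTest in 1 fit of 9 libraries with 6 residual degrees of freedom, two-sided, with Benjamini-Hochberg adjustment over 14145 genes. SE is the absolute log2 fold change divided by the square root of F. Per-group values are means ± SD of TMM-scaled CPM. Genes were placed by RefSeq symbol or synonym (24073 of 24222), and a peak counted when it shared at least 1 base with the window around a start, or around either gene end for the 24 receptor genes with no start in the table. Genes given in every library were those with the 12 largest called changes per comparison without overlap of groups. They also had a mean of at least 0.5 CPM in the higher group. The member of each family with the most reads was given too, and Grm8 was given outside this rule. From each other list come at most 3 called genes, those of smallest adjusted p, and 1 not called. Ratios of genes under the filter have exact 95% binomial intervals. The members and lists were chosen with earlier results of these data known. Each library was counted as 1 sample. Replicates differed by more than sampling noise (chi-square per degree of freedom 2.15 to 22.6), which does not show whether they were separate cultures. Scripts were tested on simulated data. Alternatives were DESeq2 1.42.0 and its size factors, other filters and thresholds, a replicate block, only the groups compared, each library left out, other peak windows, and, added after seeing the data, TMM factors without chromosomes 3 and 14. Values of a few receptor genes are not reported here. The other ChIP samples were not analysed here, and 2 of them, whose title and antibody labels differ, were put in no group.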

Additional observations from a re-analysis of the deposited data

How the results depend on the processing

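Over 12 settings per gene in most cases, single-gene values gave 1090 results on the same side of the threshold and in the same direction, 76 called values that were no longer called, 9 that became called and 19 that changed sign. Of 65 calls 51 held throughout, and those that did not are given with their genes in the report, apart from a gene not printed. All changes of sign were in values that were not called. By DESeq2, Gabrb2 in dKO against WT was -0.028. Over all alternative settings, the log2 fold change in dKO against WT ran from -1.23 to 0.50 for Gabrb2 and -0.083 to 0.28 for Chrnb4. It ran from -0.28 to 0.13 for Gabrp and -0.88 to 0.066 for Chrnb2. In rescue against dKO it ran from -0.40 to 0.051 for Grid1, -0.18 to 0.19 for Chrna9 and -0.15 to 0.11 for Chrna4. In rescue against WT it ran from -0.19 to 0.77 for Chrna5, -0.92 to 0.29 for Drd4 and -0.17 to 0.59 for Chrnb2.

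With single libraries left out, 16 to 19 receptor genes were called higher and 4 to 7 lower in dKO against WT. The shares of all genes so tested were 31.1% to 35.4% and 27% to 33.1%. In rescue against dKO 5 to 8 were called higher and 15 to 18 lower, beside 28.8% to 33.7% and 35.1% to 40.3%. In rescue against WT 10 to 12 were called higher and 5 to 6 lower, beside 21.9% to 24.4% and 22.9% to 25.1%. A filter at a mean of 2 CPM leaves 16 receptor genes, with 9 called higher and 3 lower in dKO against WT, 3 higher and 9 lower in rescue against dKO and 5 higher and 5 lower in rescue against WT, beside 32.4% and 29.4%, 32.4% and 37%, and 29.4% and 29.4% of all genes so tested. At an adjusted p under 0.01, 16 were called higher and 4 lower in dKO against WT, beside 28.7% and 24.2% of all tested genes. In rescue against dKO 5 were called higher and 14 lower, beside 26.3% and 32.9%. In rescue against WT 9 were called higher and 3 lower, beside 19.4% and 20.4%. With over 2-fold added to an adjusted p under 0.05, 15 were called higher and 2 lower in dKO against WT, beside 19.1% and 4.39%. In rescue against dKO 3 were called higher and 12 lower, beside 5.03% and 19.9%. In rescue against WT 7 were called higher and 3 lower, beside 6.43% and 6.5%. Without a filter the counts in dKO against WT were 25 higher and 6 lower of 76 receptor genes, beside 28% and 24.3% of 18729 genes. Peaks of at least 1 kb width leave 25 receptor genes with a Suz12 peak, and a mean of at least 0.5 CPM leaves 30 detected in dKO, 28 in rescue and 27 in WT.

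Replicate numbers did not pair the samples: deviations of same-numbered libraries correlated at -0.11 to 0.20. With the replicate block the counts were 17 higher and 5 lower in dKO against WT, beside 33.6% and 31.1% of all tested genes. They were 8 and 15 in rescue against dKO (32% and 38.1%) and 11 and 5 in rescue against WT (26.5% and 27.3%). Depth limits the 60 genes under the filter, and at 1 CPM or below the spread between libraries was wide.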
